A study of Mus musculus with 12 samples.

Results

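The mitochondrial DNA encodes its own messenger, ribosomal and transfer RNAs, and the 33 of these genes listed in the deposited tables were described in mouse heart RNA. The members were the genes whose name in the tables starts with mt-, which is 33 of 16514 genes listed in the 4 tables together. Of 37 mitochondrial genes in the GENCODE M21 annotation, all 13 mRNA genes and 20 of 22 tRNA genes had values. The ribosomal RNAs mt-Rnr1 and mt-Rnr2 and the tRNAs mt-Td and mt-Tk are not analysed here. Hearts came from male C57Bl/6J mice, aged 12 weeks, in 4 groups of 3 libraries: BCAA-free diet with transverse aortic constriction (TAC), control diet with TAC, BCAA-free diet with sham surgery, and control diet with sham surgery. The BCAA-free diet lacked the branched-chain amino acids leucine, isoleucine and valine, and the control diet held them. Both diets carried 1% propionate, so none of the 4 groups is without it. Each diet began 4 days before surgery, and hearts were taken 1 week after surgery on the same diet. TAC narrows the aortic arch and loads the left ventricle with pressure.

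Mitochondrial DNA is transcribed along nearly its whole length from promoters on each strand, and the long precursors are cut at the tRNAs that lie between the mRNAs and rRNAs. Most mitochondrial mRNAs then receive a short poly(A) tail, which for some of them completes the stop codon, whereas mature tRNAs end in CCA and carry no such tail. The mRNAs encode core subunits of respiratory complexes I, III and IV and of the ATP synthase, and the heart, which depends on oxidative phosphorylation, is among the tissues richest in them. Here polyadenylated RNA was selected before sequencing, so the tRNA values count the tRNA sequence that passed that selection and do not measure the mature tRNA pool. Whether the reads came from mature tRNAs, from uncut precursors or from adenylated fragments was not tested.

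The 9 tRNA genes that passed the limma test in at least 1 comparison are given here as read 5′ to 3′ on their own strand, with the anticodon in capitals. Sequences and positions are from the GENCODE M21 transcripts of GRCm38, the build the submitters name. The first 4 stand side by side on the minus strand between mt-Nd2 and mt-Co1, mt-Te lies on the minus strand beside mt-Nd6, and mt-Ti, mt-Tm, mt-Ts2 and mt-Tt lie on the plus strand.
mt-Ta, alanine, chrM:5018-5086, minus strand: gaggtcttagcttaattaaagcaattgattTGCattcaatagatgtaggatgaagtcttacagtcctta
mt-Tn, asparagine, chrM:5089-5159, minus strand: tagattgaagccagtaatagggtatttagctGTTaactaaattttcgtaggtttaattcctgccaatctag
mt-Tc, cysteine, chrM:5192-5257, minus strand: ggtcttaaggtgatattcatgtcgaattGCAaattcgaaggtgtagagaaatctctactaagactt
mt-Ty, tyrosine, chrM:5260-5326, minus strand: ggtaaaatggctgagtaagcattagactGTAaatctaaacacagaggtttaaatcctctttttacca
mt-Te, glutamate, chrM:14071-14139, minus strand: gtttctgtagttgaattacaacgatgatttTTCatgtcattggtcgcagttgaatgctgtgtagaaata
mt-Ti, isoleucine, chrM:3706-3774, plus strand: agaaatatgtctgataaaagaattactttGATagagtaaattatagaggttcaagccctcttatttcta
mt-Tm, methionine, chrM:3845-3913, plus strand: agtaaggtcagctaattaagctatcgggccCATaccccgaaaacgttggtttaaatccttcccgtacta
mt-Ts2, serine, chrM:11613-11671, plus strand: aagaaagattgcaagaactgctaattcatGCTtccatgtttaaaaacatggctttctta
mt-Tt, threonine, chrM:15289-15355, plus strand: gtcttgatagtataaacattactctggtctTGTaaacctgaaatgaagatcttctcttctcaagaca
Of the 13 mRNA genes as annotated, 3 end in an unfinished stop codon, a single T that adenylation turns into TAA. Their last bases are shown with that T in capitals. The annotated ends of mt-Nd1 (3707) and mt-Nd2 (4951) overlap the starts of mt-Ti (3706) and mt-Tw (4950). Where those mRNAs end once the tRNAs are cut out was not tested, so the 3 need not be the only ones that a tail completes.
mt-Co3, chrM:9361-9390, plus strand: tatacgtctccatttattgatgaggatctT
mt-Nd4, chrM:11515-11544, plus strand: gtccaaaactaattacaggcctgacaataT
mt-Cytb, chrM:15259-15288, plus strand: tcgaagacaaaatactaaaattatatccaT
mt-Tg follows mt-Co3, and mt-Tt follows mt-Cytb, with no base between them.

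The libraries held 29929161 to 46101244 recovered reads. Cardiomyocyte markers were abundant throughout, with 9 of 9 genes read and a summed level of 78804 to 89665 CPM (reads of a gene per 1000000 recovered reads of the library). The libraries labelled control TAC 2 and control TAC 3 each stood apart in another RNA. Control TAC 2 held 128 CPM of nuclear RNAs without a poly(A) tail, against 3.23 to 35.8 in the other 11 libraries (4 of the 15 genes of that list had values). Control TAC 3 held 231 CPM of liver genes, against 0.632 to 1.75 in the other 11 (only 2 of the 6 liver genes had values in BCAA-free sham libraries). Calls of members for the diet in TAC hearts are given with and without both. For TAC against sham on the control diet, and for nuclear respiratory subunits, the fits without both are described by log2 changes only. Most other results that rest on them are given with them only, among them the changes of single mRNAs and the difference of the TAC responses. No label ties a library to a mouse of its own; the p-values below therefore speak of variation among libraries, which could be technical in part. In bulk tissue, fewer cells of a type and less RNA per cell cannot be told apart.

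Mitochondrial mRNAs took a smaller share of reads in both TAC groups than in either sham group, and mitochondrial tRNA sequence took the smallest share in control TAC hearts. The 13 mRNA genes held 16.9, 17.6 and 16.2% of reads in BCAA-free TAC hearts and 16.4, 16.6 and 17.6% in control TAC hearts. They held 18.5, 18.1 and 19.6% in BCAA-free sham hearts and 19.8, 19.1 and 20.2% in control sham hearts. The TAC libraries did not overlap the sham libraries, and the 2 diets overlapped within each surgery. The 20 tRNA genes held 0.170, 0.178 and 0.165% of reads in BCAA-free TAC hearts and 0.125, 0.124 and 0.145% in control TAC hearts. They held 0.188, 0.177 and 0.222% in BCAA-free sham hearts and 0.205, 0.188 and 0.206% in control sham hearts. Control TAC libraries were below all the others, and BCAA-free TAC libraries overlapped BCAA-free sham libraries. Set against the mRNAs of the same library, tRNA reads numbered 10.1, 10.1 and 10.2 per 1000 mRNA reads in BCAA-free TAC hearts and 7.61, 7.49 and 8.24 in control TAC hearts. The ratio was 10.2, 9.80 and 11.3 in BCAA-free sham hearts and 10.4, 9.82 and 10.2 in control sham hearts. The 3 control TAC libraries, among them the 2 that stand apart, were again the lowest. Control TAC 1, which is not among those 2, had 7.61 tRNA reads per 1000 mRNA reads, and was the highest of the 12 libraries in summed fibroblast (2078 CPM) and macrophage (264 CPM) markers. These shares are sums over the members and are given as a description, without a test.

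Markers of other heart cell types also differed between the groups, and their part in these shares and in the tests that follow was not tested. All 5 fibroblast, 5 macrophage and 5 endothelial markers had reads in every library. Summed fibroblast markers had 900.2 to 1705 CPM in BCAA-free TAC hearts and 1005 to 2078 in control TAC hearts, above the 548 to 605 in BCAA-free sham hearts and 718 to 740.4 in control sham hearts. Macrophage markers had 214 to 255 CPM in BCAA-free TAC hearts and 155 to 264 in control TAC hearts. They had 128 to 139 in BCAA-free sham hearts and 159 to 167 in control sham hearts, so the surgeries were separate on the BCAA-free diet and overlapped on the control diet. Endothelial markers had 571 to 612 CPM in BCAA-free TAC hearts, below the 709.9 to 796 in control TAC hearts and the 653 to 764 in BCAA-free sham hearts, and control sham hearts had 709 to 972. Adipocyte markers had 92.9 CPM in the library BCAA-free TAC 2, against 32.7 to 61.0 in all other libraries. Erythroid markers had 261, 573 and 740 CPM in BCAA-free TAC hearts, and 423 to 541 in the other groups.

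**Figure D1:**
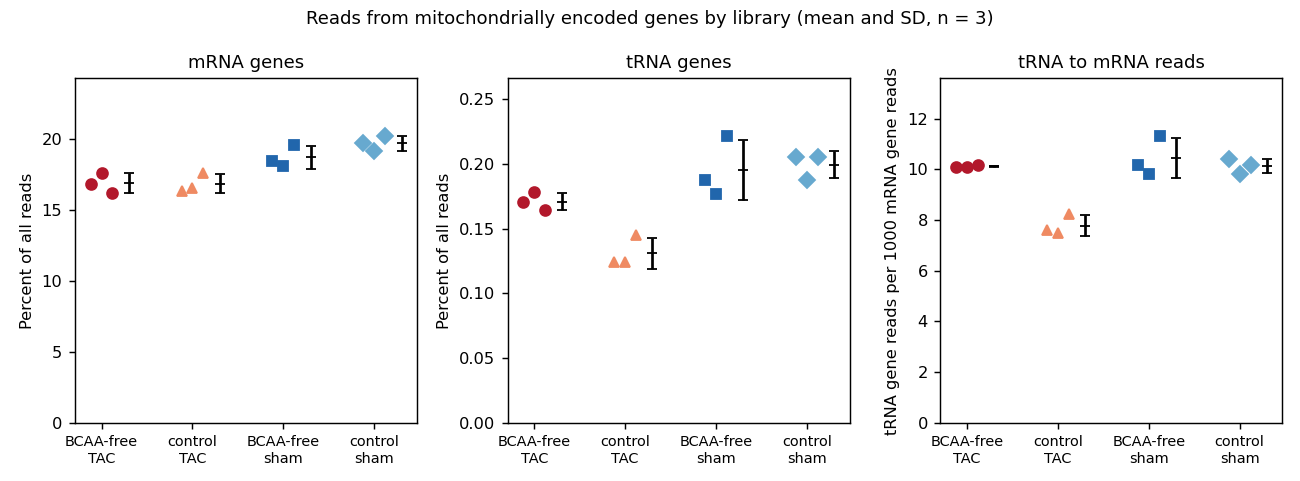
Percent of all reads from 13 mitochondrial mRNA genes (left) and 20 mitochondrial tRNA genes (middle), and tRNA gene reads per 1000 mRNA gene reads (right), for each library of the 4 groups, with the mean and SD (n = 3). Control TAC hearts sit at 7.49 to 8.24 tRNA reads per 1000 mRNA reads, below all libraries of the other groups.

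Counted reads per kilobase of the mRNA genes spanned 3 orders of magnitude. The low genes lay side by side along the DNA, in the stretch matched by nuclear pseudogenes that is described below. Whether the mRNAs themselves spanned as much was not tested. In CPM per kilobase, averaged over the 12 libraries, mt-Co1, the catalytic subunit of complex IV, was the most abundant at 50205. It was followed by mt-Cytb of complex III at 29404, and by the complex I subunits mt-Nd1 at 25414 and mt-Nd2 at 12934. Each of these 4 was above the next in 12 of 12 libraries. The complex I subunits mt-Nd6 at 9432, mt-Nd4 at 8936 and mt-Nd5 at 7686 came next, and mt-Nd6 was above mt-Nd4 in 8 of 12 libraries only. The remaining 6 mRNAs were far lower, with mt-Nd3 at 485, mt-Nd4l at 85.5, mt-Co3 at 39.1, mt-Atp6 at 34.2, mt-Atp8 at 27.6 and mt-Co2 at 27.5. Within this low group mt-Atp8 and mt-Co2 were not separated, since mt-Atp8 was above mt-Co2 in 5 of 12 libraries.

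All 6 low mRNAs lie inside 1 stretch of mitochondrial DNA that is largely matched by annotated nuclear pseudogenes, so their low values are uncertain. Annotated pseudogenes on chromosome 1 (7 of them, within chr1:24611535-24616197, minus strand) match parts of chrM:6390-11042, a stretch of 4653 bases, with 2 mismatches in 4136 aligned bases. mt-Co2, mt-Atp8, mt-Atp6, mt-Co3, mt-Nd3 and mt-Nd4l lie inside it, as do the tRNAs mt-Ts1, mt-Tg and mt-Tr, and mt-Co1 and mt-Nd4 lie in it in part. These pseudogenes cover 43 of the 204 bases of mt-Atp8 and leave gaps at the 3 tRNAs, so the rest of mt-Atp8 and those tRNAs were not aligned here. Gm28439 matches 876 of the 1378 bases of mt-Nd4 at 100% identity, and Gm29216 matches 483 of the 1545 bases of mt-Co1 with 1 mismatch. The levels per kilobase of mt-Nd4 and mt-Co1, and the order of mt-Nd6 and mt-Nd4, are therefore uncertain too. The start of mt-Co3 and of its copy Gm28437 is shown because a read of these bases cannot be placed in one rather than the other. The start of mt-Nd3 and of its copy Gm28438 holds 1 of the 2 mismatches, T3C counted from the first base of the gene, in capitals.
mt-Co3, chrM:8607-8666, plus strand: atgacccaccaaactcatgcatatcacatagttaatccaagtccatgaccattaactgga
Gm28437, chr1:24613912-24613971, minus strand: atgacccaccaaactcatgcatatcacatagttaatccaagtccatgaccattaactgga
mt-Nd3, chrM:9459-9490, plus strand: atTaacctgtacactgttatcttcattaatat
Gm28438, chr1:24613088-24613119, minus strand: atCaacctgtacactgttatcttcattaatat
How reads that match more than one place were counted is not given in the sources used here. Among annotated transcripts elsewhere, Gm13340 on chromosome 2 matches all 1545 bases of mt-Co1 at 97.6% identity, Gm11408 on chromosome 4 all 519 bases of mt-Nd6 at 93.6%, and a Cep295 transcript with a retained intron on chromosome 9 all 71 bases of mt-Tn at 91.5%. The annotated mRNA genes also overlap in places (mt-Atp8 with mt-Atp6, mt-Nd4l with mt-Nd4, mt-Nd5 with mt-Nd6 on the other strand), and reads of the overlaps are uncertain in the same way. Whether reads were counted by strand is not given either, so for genes of the minus strand their own transcript and the opposite one cannot be told apart.

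**Figure D2:**
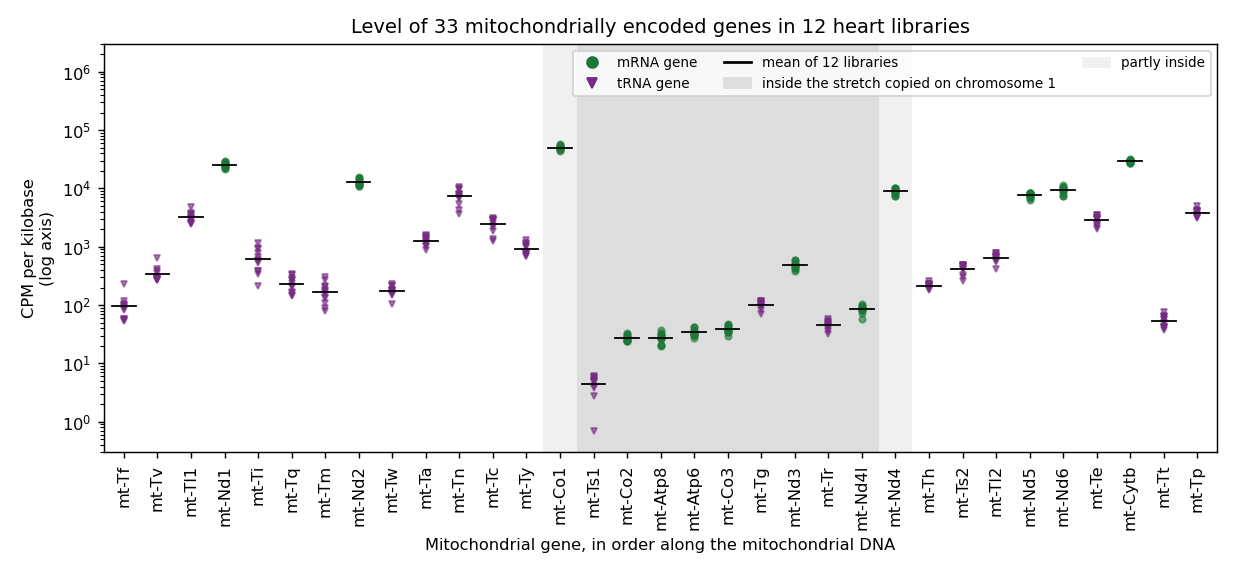
Level in CPM per kilobase (log axis) of 33 mitochondrial genes in their order along the mitochondrial DNA, 1 point per library (12 libraries), with the mean as a line. The 6 mRNAs inside the stretch copied on chromosome 1 (grey) lie between 27.5 and 485 on average, below the 7 other mRNAs.

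Among the tRNA genes, mt-Tn was the highest in 12 of 12 libraries at 7407 CPM per kilobase. mt-Tp at 3841, mt-Tl1 at 3206, mt-Te at 2867 and mt-Tc at 2427 followed, and no 2 neighbours of these 4 kept their order in every library. mt-Ta, mt-Ty, mt-Tl2, mt-Ti and mt-Ts2 averaged 1273, 929, 651, 624 and 417. The tRNAs mt-Tv, mt-Tq, mt-Th, mt-Tw, mt-Tm, mt-Tg, mt-Tf, mt-Tt and mt-Tr ranged from 339.7 down to 45.8. mt-Ts1, inside the copied stretch, was the lowest at 4.49, and control TAC 1 held 2 reads of it. mt-Tn alone gave 33.8, 32.6 and 29.9% of tRNA reads in BCAA-free TAC hearts and 21.1, 24.8 and 26.7% in control TAC hearts. It gave 29.7, 28.1 and 34.0% in BCAA-free sham hearts and 34.0, 27.4 and 33.2% in control sham hearts.

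The levels of the mRNAs in the 4 groups, before any test, were as follows. mt-Co1, the catalytic subunit of complex IV, averaged 71051 ± 2959.9 CPM in BCAA-free TAC hearts, 74803 ± 2254 in control TAC hearts, 79012 ± 2032 in BCAA-free sham hearts and 85400.2 ± 2566 in control sham hearts (SD, n = 3 each). mt-Cytb, the cytochrome b of complex III, averaged 32086 ± 1716 in BCAA-free TAC hearts, 32158 ± 1124 in control TAC hearts, 34563 ± 1420.4 in BCAA-free sham hearts and 35745 ± 140.2 in control sham hearts. In both genes each TAC group averaged below the sham group of its diet. mt-Nd4, a proton-pumping subunit of complex I, averaged 12028 ± 1011 in BCAA-free TAC hearts, 10773 ± 676 in control TAC hearts, 12917 ± 1191 in BCAA-free sham hearts and 13536 ± 938 in control sham hearts. mt-Nd5, another proton-pumping subunit, averaged 12713 ± 859 in BCAA-free TAC hearts, 12966 ± 603 in control TAC hearts, 15184 ± 416 in BCAA-free sham hearts and 15210.2 ± 149 in control sham hearts. Here too each TAC group averaged below the sham group of its diet.

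Inside the copied stretch lie 6 mRNAs, and the levels of those other than mt-Co3 follow. mt-Nd3, a small complex I subunit, averaged 172 ± 5.14 CPM in BCAA-free TAC hearts, 156 ± 7.65 in control TAC hearts, 186 ± 21.5 in BCAA-free sham hearts and 162 ± 37.3 in control sham hearts (SD, n = 3 each). mt-Nd4l, also of complex I, averaged 25.1 ± 1.77 in BCAA-free TAC hearts, 27.9 ± 2.31 in control TAC hearts, 26.3 ± 3.76 in BCAA-free sham hearts and 22.2 ± 4.47 in control sham hearts. mt-Co2, which takes electrons into complex IV, averaged 18.6 ± 1.21 in BCAA-free TAC hearts, 20.0 ± 3.04 in control TAC hearts, 17.8 ± 1.25 in BCAA-free sham hearts and 18.9 ± 3.24 in control sham hearts. In CPM the TAC and sham libraries of these 3 overlapped on both diets, except that mt-Nd4l was higher in every control TAC library than in every control sham library. mt-Atp6, the proton channel subunit of the ATP synthase, averaged 21.6 ± 2.85 in BCAA-free TAC hearts, 25.1 ± 3.69 in control TAC hearts, 22.0 ± 1.00 in BCAA-free sham hearts and 24.6 ± 4.00 in control sham hearts. mt-Atp8, a small subunit beside it, averaged 4.61 ± 0.732 in BCAA-free TAC hearts, 5.21 ± 0.940 in control TAC hearts, 6.50 ± 1.08 in BCAA-free sham hearts and 6.21 ± 0.494 in control sham hearts. Both overlapped in CPM between TAC and sham on both diets, except that mt-Atp8 was lower in every BCAA-free TAC library than in every BCAA-free sham library.

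The tRNAs that passed the limma test in no comparison are given by their range over the 12 libraries. mt-Tl1 had 183 to 359 CPM and mt-Tp 210.2 to 334. mt-Tl2 had 29.8 to 55.1, mt-Tv 18.3 to 43.6, mt-Tq 10 to 24.3 and mt-Th 12.3 to 17.2. The lowest were mt-Tf with 3.69 to 15.5, mt-Tw with 6.90 to 15.1, mt-Tg with 4.78 to 8.10, mt-Tr with 2.21 to 3.95 and mt-Ts1 with 0.0475 to 0.417. These 11 tRNAs and the 9 described one by one make up the 20. DESeq2 did call some of the 11, namely mt-Tl1, mt-Tq, mt-Tw and mt-Tp lower and mt-Tl2 higher with TAC on the control diet, and mt-Tf lower with TAC on the BCAA-free diet.

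The first comparison asked how pressure overload acts on the control diet. In control TAC hearts 8 tRNA genes fell and 1 mRNA gene, mt-Co3, rose, out of 33 members, by limma's test with Benjamini-Hochberg adjustment over 15873 genes. Of all genes tested, 1.94% fell and 3.4% rose (308 and 540 genes; 187 and 621 when scaled to total reads). mt-Tn, the asparagine tRNA, had 263, 307 and 388 CPM in control TAC hearts, against 698, 515 and 682 in control sham hearts. mt-Tc, the cysteine tRNA, had 81.8, 88.2 and 123 CPM in control TAC hearts, against 200.9, 151 and 186 in control sham hearts. Both groups of libraries were separate for both genes, with log2 changes of -1.06 ± 0.17 (SE, adjusted p = 0.0116) and -0.95 ± 0.16 (adjusted p = 0.0156). Log2 changes here and below are on the scale log2(normalised reads + 4), which understates the change of low genes, and each has its standard error. In the comparisons, overlap of groups is judged on the normalised reads of the table tested, and groups of CPM values can overlap differently.

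Another 3 minus-strand tRNAs fell, of which mt-Ta and mt-Ty flank mt-Tn and mt-Tc. mt-Ta, the alanine tRNA, had 70.3, 60.4 and 71.2 CPM in control TAC hearts, against 97.7, 111 and 104 in control sham hearts. mt-Ty, the tyrosine tRNA, had 46.0, 53.5 and 50.7 in control TAC hearts, against 65.7, 88.1 and 69.0 in control sham hearts. mt-Te, the glutamate tRNA, had 142, 148 and 168 in control TAC hearts, against 204, 207 and 210.4 in control sham hearts. The groups did not overlap for any of the 3, which fell by 0.69 ± 0.07, 0.62 ± 0.11 and 0.51 ± 0.08 on the log2 scale (adjusted p = 0.00285, 0.0158 and 0.0122). That makes 5 of the 7 minus-strand tRNAs outside the copied stretch. The other 2, mt-Tq for glutamine and mt-Tp for proline, had log2 changes of -0.66 ± 0.20 (adjusted p = 0.0918) and -0.31 ± 0.10 (adjusted p = 0.0985), with overlapping groups.

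Of the 10 plus-strand tRNAs outside the copied stretch, 3 fell. mt-Ti, the isoleucine tRNA, had 14.7, 26.1 and 23.3 CPM in control TAC hearts, against 54.2, 41.5 and 79.6 in control sham hearts. mt-Tm, the methionine tRNA, had 5.48, 9.56 and 6.26 in control TAC hearts, against 20.52, 12.1 and 14.5 in control sham hearts. mt-Ts2, the serine tRNA of the AGY codons, had 15.1, 18.2 and 19.4 in control TAC hearts, against 28.6, 26.2 and 27.3 in control sham hearts. All 3 pairs of groups were separate, and the log2 changes were -1.50 ± 0.27 (adjusted p = 0.0171), -1.20 ± 0.24 (adjusted p = 0.0259) and -0.71 ± 0.12 (adjusted p = 0.0135). mt-Tl2, the leucine tRNA of the CUN codons, lies next to mt-Ts2 and had a log2 change of 0.42 ± 0.11 (adjusted p = 0.0627), with all control TAC libraries above all control sham libraries. The other 6 plus-strand tRNAs, mt-Tf, mt-Tv, mt-Tl1, mt-Tw, mt-Th and mt-Tt, had log2 changes of -1.01 to 0.16 and did not pass the test. Inside the copied stretch, mt-Tg (separate in CPM only), mt-Tr and mt-Ts1 had 0.31, 0.16 and -0.72, and none passed.

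The 7 abundant mRNAs, those outside or only partly inside the copied stretch, were all lower on average in control TAC hearts, and the tests differed on them. Their log2 changes were -0.45 ± 0.13 for mt-Nd2, -0.39 ± 0.13 for mt-Nd4, -0.37 ± 0.16 for mt-Nd1, -0.31 ± 0.14 for mt-Nd6, -0.30 ± 0.13 for mt-Nd5, -0.26 ± 0.23 for mt-Co1 and -0.22 ± 0.17 for mt-Cytb. mt-Nd2 had 11550.1, 11447 and 12184 CPM in control TAC hearts, against 15419, 14403 and 16019.5 in control sham hearts. mt-Nd1 had 21346, 20411 and 23195 in control TAC hearts, against 27732, 25566 and 26835 in control sham hearts. In 6 of the 7, mt-Nd6 being the exception, the groups did not overlap. By limma 0 of the 7 passed, with adjusted p from 0.0823 for mt-Nd2 to 0.557 for mt-Co1. DESeq2 on the recovered reads called 6 of them, again without mt-Nd6, with adjusted p from 4.51e-06 for mt-Nd2 to 0.0317 for mt-Cytb. edgeR called mt-Nd2 and mt-Nd1 (adjusted p = 0.0252 and 0.0449) and 10 members lower in all, beside 1.67% of all genes. Only 27 genes in this table average above 100000 normalised reads, and 7 of them are these mRNAs. At that level the limma trend gave mt-Nd2 an SD of 0.195 on the log2 scale. Its libraries varied around their group means with an SD of 0.0937. For each of the called tRNAs the libraries varied more than the trend. The SD was 0.296 against a trend of 0.0896 for mt-Tn, 0.491 against 0.101 for mt-Ti, and 0.0918 against 0.0885 for mt-Ta. Without the trend 0 members passed, beside 55 genes higher and 16 lower of all 15873. The direction held for all 7 abundant mRNAs when libraries were scaled to total reads or to reads of nuclear genes. Under quantile normalization 4 of 7 were negative and 3 were at 0, since a gene that holds the same rank in every library is given the same value there.

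**Figure D3:**
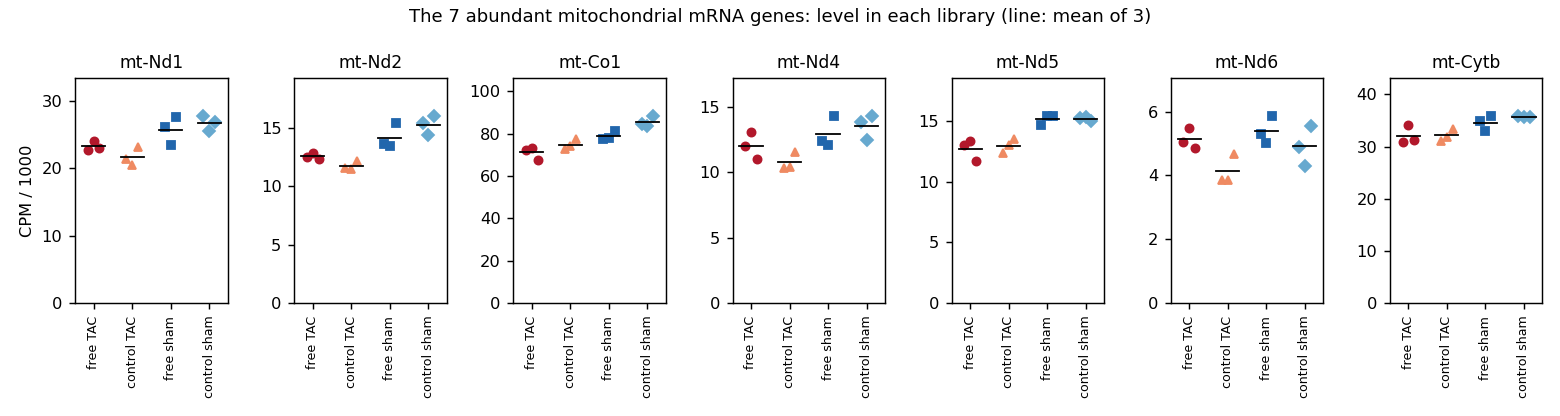
Level of 7 abundant mitochondrial mRNA genes, in CPM divided by 1000, for each library of the 4 groups, with the mean of 3 as a line (free, BCAA-free diet). Control TAC libraries lie below control sham libraries for each gene except mt-Nd6, whose groups overlap.

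mt-Co3, a core subunit of complex IV, was the 1 member that rose. It had 36.2, 35.6 and 37.5 CPM in control TAC hearts, against 23.4, 29.5 and 27.7 in control sham hearts, without overlap. Its log2 change was 0.38 ± 0.09 (adjusted p = 0.0411). The call is at the edge of the threshold: adjusted p ranged from 0.00736 to 0.235 over 18 alternative settings, and 10 of them kept it. Leaving out any single library other than control sham 2 lost it, with log2 changes of 0.29 without control sham 1 to 0.42 without control sham 3. Its nuclear copy Gm28437, with 100% identity over 783 bases, had 242, 238 and 308 normalised reads in control TAC hearts, against 386, 268 and 419.7 in control sham hearts. The copy's log2 change was -0.43 ± 0.18 (adjusted p = 0.191), opposite in sign to that of mt-Co3. The other 5 mRNAs of the stretch had 0.28 ± 0.14 for mt-Nd4l, 0.02 ± 0.16 for mt-Co2, -0.03 ± 0.15 for mt-Atp6, -0.09 ± 0.14 for mt-Nd3 and -0.32 ± 0.17 for mt-Atp8, and none passed. mt-Atp6 was positive when scaled to total reads.

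Over the 33 members, 18 were lower and 3 higher in every control TAC library than in every control sham library, beside 13.6% and 14.5% of all genes tested. The median log2 change was -0.63 over the 20 tRNAs and -0.26 over the 13 mRNAs, beside 0.00 over all genes. DESeq2 called 18 members lower and 2 higher, beside 4.01% and 5.69% of all genes. With control TAC 2 and 3 both left out, which leaves 1 TAC library, the log2 changes of the 8 called tRNAs were still negative. mt-Ta, mt-Tn, mt-Ty and mt-Te passed without any single library, whereas without control sham 1 only 4 members passed. Of all genes 215 rose and 85 fell without control sham 1.

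**Figure D4:**
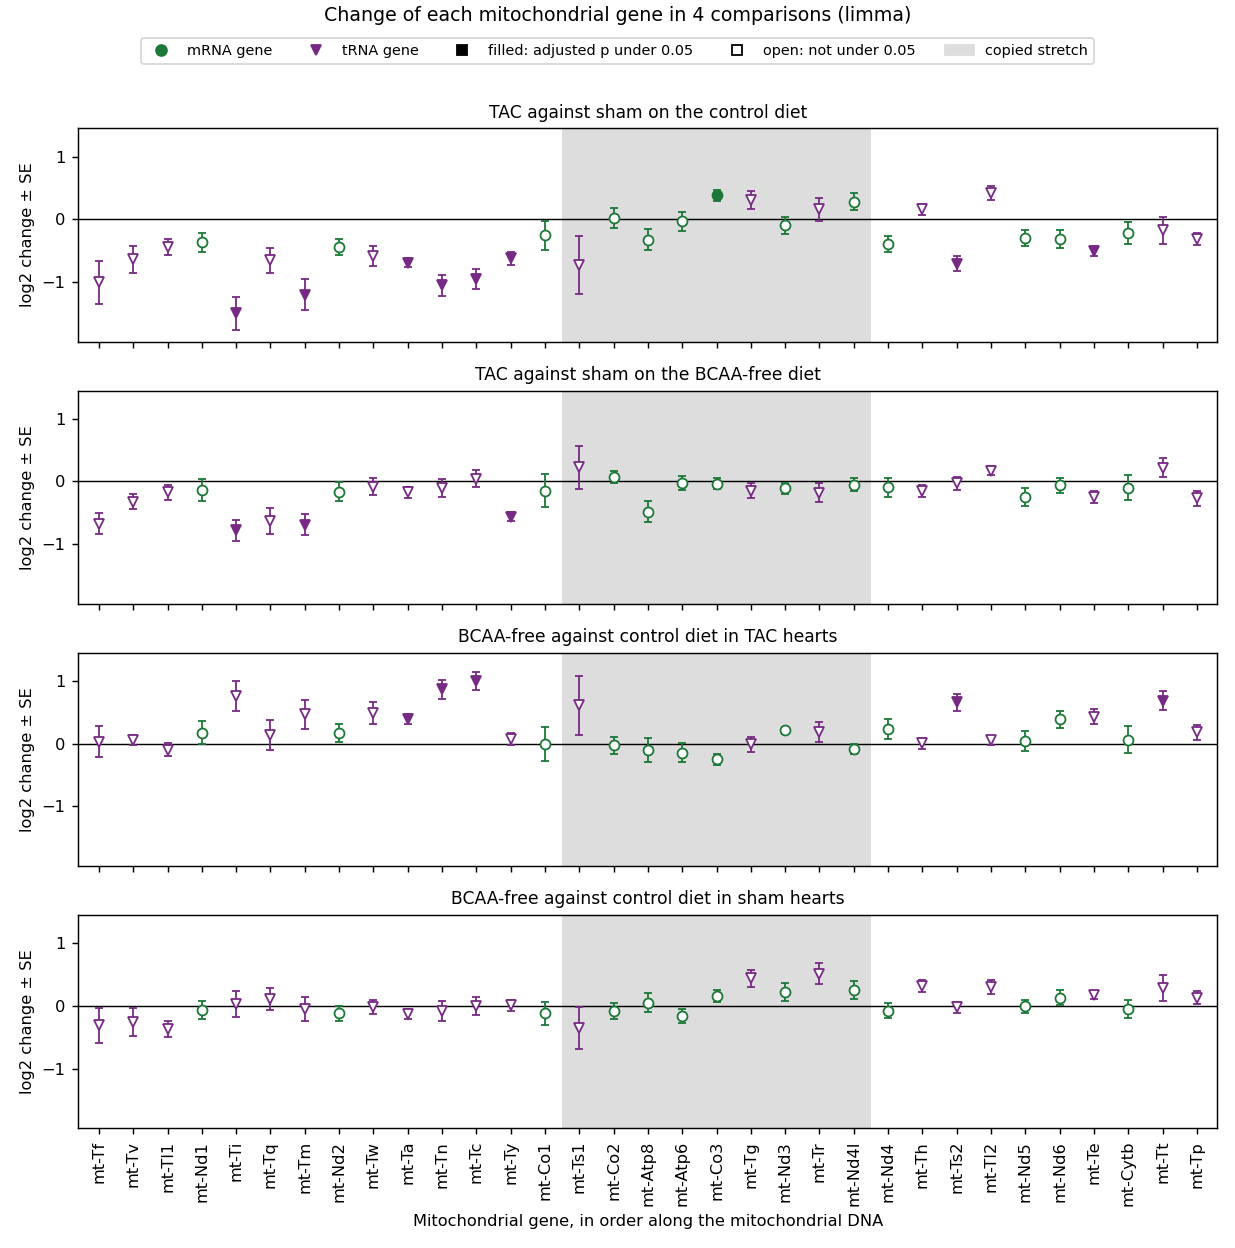
Log2 change ± SE (limma) of 33 mitochondrial genes in order along the mitochondrial DNA, in the 4 comparisons between pairs of groups; filled symbols have an adjusted p under 0.05, and grey marks genes inside the stretch copied on chromosome 1. On the control diet 8 tRNAs are filled below 0 and mt-Co3 above it, and in TAC hearts 5 tRNAs are filled above 0 for the diet.

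On the BCAA-free diet, 3 tRNAs fell with TAC, and by limma 0 of 13 mRNAs passed, with 1 at an unadjusted p under 0.05. These are 3 of 33 members, beside 1.37% of 15936 genes that fell and 2.94% that rose (219 and 469 genes; 349 and 388 when scaled to reads of nuclear genes). mt-Ty had 46.8, 51.6 and 52.2 CPM in BCAA-free TAC hearts, against 71.3, 75.01 and 77.2 in BCAA-free sham hearts. mt-Ti had 26.2, 39.7 and 35.9 in BCAA-free TAC hearts, against 66.4, 46.4 and 63.0 in BCAA-free sham hearts. mt-Tm had 7.45, 9.13 and 11.2 in BCAA-free TAC hearts, against 18.7, 14.2 and 12.3 in BCAA-free sham hearts. The groups were separate for all 3, with log2 changes of -0.56 ± 0.07 (adjusted p = 0.00384), -0.78 ± 0.17 (adjusted p = 0.0308) and -0.69 ± 0.17 (adjusted p = 0.0477). mt-Tf, the phenylalanine tRNA at the head of the plus-strand transcript, missed the threshold at -0.67 ± 0.17 (adjusted p = 0.05003). mt-Ty passed without any single library. mt-Ti was lost without BCAA-free sham 1 (adjusted p = 0.136) or BCAA-free sham 3 (0.134), and mt-Tm was kept by 1 of 6 such fits, the one without BCAA-free TAC 3.

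mt-Tn and mt-Tc, which fell on the control diet, did not pass here. mt-Tn had 575, 581 and 492 CPM in BCAA-free TAC hearts, against 557, 498 and 754 in BCAA-free sham hearts (-0.11 ± 0.14, adjusted p = 0.719). mt-Tc had 193, 188 and 169 in BCAA-free TAC hearts, against 190.3, 143 and 208 in BCAA-free sham hearts (0.05 ± 0.13, adjusted p = 0.884). The groups overlapped for both. The remaining called tRNAs of the other diet had -0.17 ± 0.08 for mt-Ta, -0.25 ± 0.10 for mt-Te and -0.03 ± 0.10 for mt-Ts2, with adjusted p of 0.268, 0.170 and 0.900. The 7 abundant mRNAs were again negative, at -0.06 for mt-Nd6 to -0.25 for mt-Nd5, and the groups were separate for mt-Co1 and mt-Nd5, and in CPM for mt-Nd2 too. edgeR called mt-Ty and mt-Ti only, and DESeq2 called mt-Nd5 (adjusted p = 0.0392) and mt-Tf beside the 3 tRNAs, with 2.43% of all genes lower and 4.75% higher by DESeq2, and 1.25% and 2.94% by edgeR. The 6 mRNAs inside the copied stretch had -0.48 for mt-Atp8 to 0.07 for mt-Co2, with groups that overlapped except for mt-Atp8 in CPM. Over all members 10 were lower and 1 higher without overlap, beside 12.7% and 14.0% of all genes.

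The diets were then compared within TAC hearts. In BCAA-free TAC hearts 5 tRNAs rose above control TAC hearts and 0 of 13 mRNAs passed by limma (3 at an unadjusted p under 0.05), beside 1.27% of 16222 genes that rose and 2.11% that fell (206 and 342 genes; 136 and 528 when scaled to total reads). mt-Tc had 193, 188 and 169 CPM in BCAA-free TAC hearts, against 81.8, 88.2 and 123 in control TAC hearts. mt-Tn had 575, 581 and 492 in BCAA-free TAC hearts, against 263, 307 and 388 in control TAC hearts. mt-Ta had 90.03, 84.0 and 79.2 in BCAA-free TAC hearts, against 70.3, 60.4 and 71.2 in control TAC hearts. These 3 are neighbours on the minus strand, their groups were separate, and they rose by 1.00 ± 0.15 (adjusted p = 0.00984), 0.87 ± 0.15 (adjusted p = 0.0170) and 0.40 ± 0.08 (adjusted p = 0.0338) on the log2 scale. mt-Ty, the next gene on the same strand, had 46.8, 51.6 and 52.2 in BCAA-free TAC hearts, against 46.0, 53.5 and 50.7 in control TAC hearts. Its groups overlapped, and its log2 change was 0.08 ± 0.10 (adjusted p = 0.709).

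The other 2 that rose lie on the plus strand. mt-Ts2 had 25.7, 28.9 and 24.6 CPM in BCAA-free TAC hearts, against 15.1, 18.2 and 19.4 in control TAC hearts. mt-Tt, the threonine tRNA, had 4.29, 3.94 and 5.14 in BCAA-free TAC hearts, against 2.94, 2.83 and 2.77 in control TAC hearts. Both pairs of groups were separate, with log2 changes of 0.66 ± 0.13 (adjusted p = 0.0289) and 0.69 ± 0.15 (adjusted p = 0.0402). mt-Te and mt-Ti were also higher in every BCAA-free TAC library (mt-Te not in CPM), at 0.43 ± 0.12 and 0.76 ± 0.24, and did not pass the test (adjusted p = 0.0919 and 0.120). The 13 tRNAs that neither passed nor were separate ranged from -0.09 for mt-Tl1 to 0.61 for mt-Ts1. Of the 4 tRNAs that carry the amino acids left out of the diet, 0 passed by limma or edgeR and DESeq2 called mt-Ti (adjusted p = 0.0102), with 0.76 for mt-Ti (isoleucine), 0.06 for mt-Tv (valine), and -0.09 and 0.05 for the leucine tRNAs mt-Tl1 and mt-Tl2. mt-Tv and mt-Tl2 were negative when scaled to total reads or to reads of nuclear genes.

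These calls depend on the libraries. Without BCAA-free TAC 2, without control TAC 2, or with control TAC 2 and 3 both left out, 0 members passed, and with both left out 0 of all genes did. The log2 changes were then still 1.29 for mt-Tc, 1.19 for mt-Tn, 0.93 for mt-Ts2, 0.70 for mt-Tt and 0.39 for mt-Ta, with adjusted p of 0.0803 to 0.348. Without control TAC 1 there were 2 calls, and without BCAA-free TAC 3 or control TAC 3 there were 3. Of all genes 40 rose and 138 fell without BCAA-free TAC 2, and 28 and 110 without control TAC 2. They numbered 108 and 225 without control TAC 1, 78 and 209 without BCAA-free TAC 3, and 89 and 153 without control TAC 3. Scaling to total reads or to reads of nuclear genes left 3, edgeR called 4 and DESeq2 8, beside 1.12% of all genes higher and 1.92% lower for edgeR and 3.46% and 3.87% for DESeq2. Control TAC libraries serve both here and in the comparison of TAC with sham on the control diet, so the fall there and the rise here of mt-Ta, mt-Tn, mt-Tc and mt-Ts2 rest on the same 3 libraries.

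**Figure D5:**
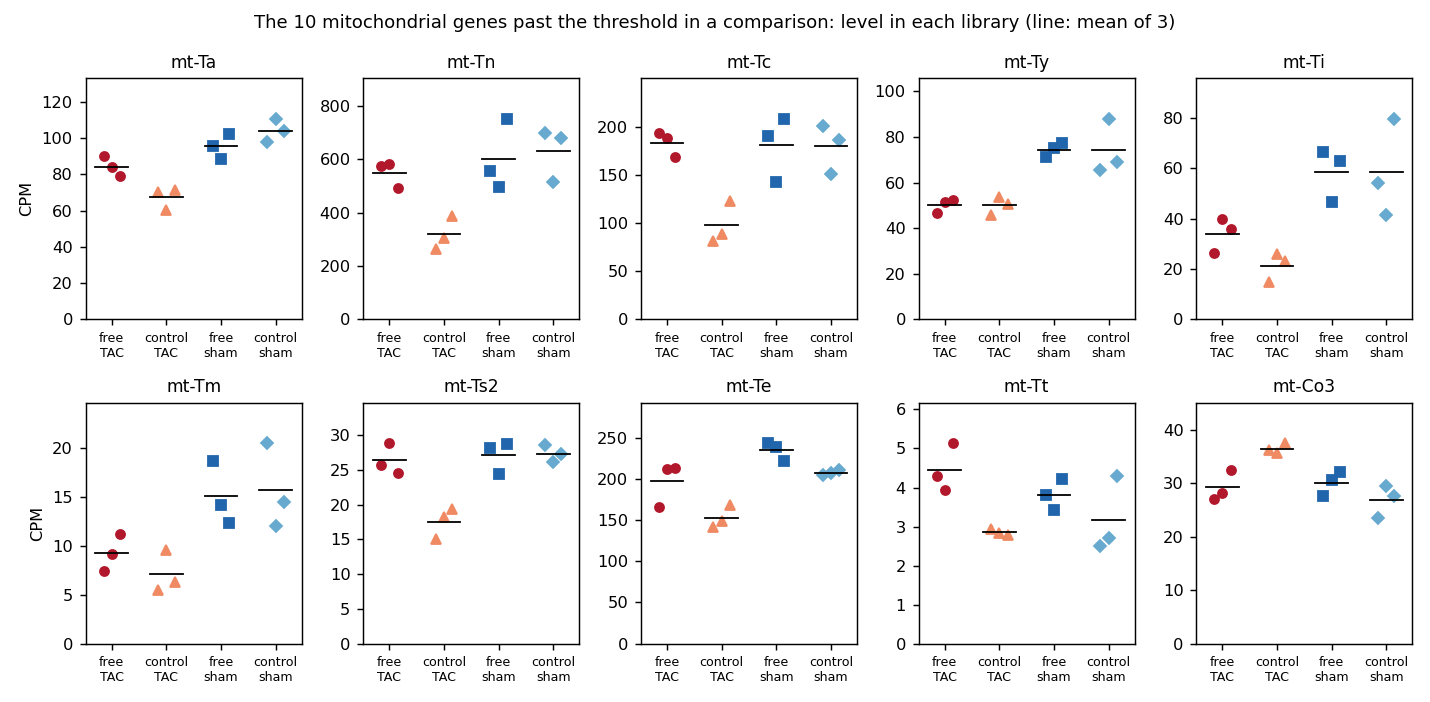
Level in CPM of the 10 mitochondrial genes that passed the test in at least 1 comparison, for each library of the 4 groups, with the mean of 3 as a line (free, BCAA-free diet). mt-Tn and mt-Tc are low in the 3 control TAC libraries, while mt-Ty is low in TAC hearts of both diets.

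Of the abundant mRNAs, mt-Nd6 differed most between the diets in TAC hearts. As the only mRNA of the minus strand it shares its promoter with mt-Te and with the tRNAs from mt-Ty to mt-Ta. Its own transcript and the opposite one cannot be told apart here, and whether its reads carried a poly(A) tail was not tested. mt-Nd6 had 5059, 5487 and 4868 CPM in BCAA-free TAC hearts, against 3843, 3869 and 4684 in control TAC hearts, without overlap. Its log2 change of 0.39 ± 0.13 did not pass by limma (adjusted p = 0.156) and passed by DESeq2 (adjusted p = 0.0106). The others ranged from -0.00 for mt-Co1 to 0.23 for mt-Nd4, with mt-Nd1 (not in CPM) and mt-Nd2 higher without overlap, and mt-Cytb and mt-Nd5 changing sign with the scaling. Gm13339, a chromosome 2 pseudogene that matches the last 510 bases of mt-Nd2 at 96.7% identity, rose. It had 123, 88.9 and 104 normalised reads in BCAA-free TAC hearts, against 38.7, 41.4 and 50.7 in control TAC hearts (1.20 ± 0.21, adjusted p = 0.0170), and was named after its value was seen. Inside the copied stretch, mt-Nd3 was higher without overlap (0.21 ± 0.06, adjusted p = 0.102) and mt-Co3 lower without overlap (-0.25 ± 0.09, adjusted p = 0.157). In all, 11 members were higher and 1 lower without overlap, beside 12.6% and 13.0% of all genes.

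Ratios of reads within a library need no scaling between libraries. Reads of mt-Tn per 1000 reads of mt-Nd2, its neighbour across mt-Ta and mt-Tw, were 46.0, 45.3 and 39.9 in BCAA-free TAC hearts and 22.8, 26.8 and 31.8 in control TAC hearts. They were 41.1, 37.0 and 48.9 in BCAA-free sham hearts and 45.3, 35.8 and 42.6 in control sham hearts. The 3 control TAC libraries were below the other 9. Reads of mt-Nd6 per 100 reads of mt-Nd5, which it overlaps on the opposite strand, were 38.9, 41.0 and 41.4 in BCAA-free TAC hearts and 31.1, 29.8 and 34.6 in control TAC hearts. They were 36.0, 32.6 and 38.02 in BCAA-free sham hearts and 32.1, 28.1 and 36.9 in control sham hearts. Here BCAA-free TAC libraries were the highest 3, and control TAC libraries overlapped both sham groups. These ratios were chosen with the values known and carry no test.

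In sham hearts limma called 0 members for the diet, and 6 had an unadjusted p below 0.05. The counts by DESeq2 and by edgeR were 0 as well. Of all genes 1.05% rose and 1.76% fell by limma (163 and 275 of 15596), 1.94% and 3.26% by DESeq2, and 0.994% and 1.98% by edgeR. The smallest adjusted p belonged to mt-Th, the histidine tRNA, which had 15.6, 15.3 and 17.2 CPM in BCAA-free sham hearts, against 12.4, 13.7 and 12.3 in control sham hearts (0.32 ± 0.09, adjusted p = 0.0910). Including mt-Th, 5 tRNAs were higher without overlap, beside 11.5% of all genes. The others were mt-Tg (0.44), mt-Tr (0.52), mt-Tl2 (0.30) and mt-Te (0.17), and mt-Tg and mt-Tr lie inside the copied stretch. mt-Tc and mt-Tn, which differed between the diets in TAC hearts, had -0.00 ± 0.15 and -0.08 ± 0.16 here, and mt-Tc was positive when scaled to total reads. The 13 mRNAs ranged from -0.15 for mt-Atp6 to 0.25 for mt-Nd4l, with groups that overlapped except for mt-Co1 in CPM. The 4 tRNAs of the branched-chain amino acids ranged from -0.36 for mt-Tl1 to 0.30 for mt-Tl2.

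Whether the response to TAC differed between the diets was tested directly, as the BCAA-free response minus the control response over all 12 libraries. By limma 0 of 33 members passed, beside 0.00644% of 15524 genes in the positive and 0.0386% in the negative direction (1 and 6 genes). At an unadjusted p under 0.05 there were 8 members. edgeR called 0, beside 0.00644% and 0.0258% of all genes. DESeq2 called 3 members in the positive direction, beside 0.264% of all genes (0.432% in the negative direction), namely mt-Tc, mt-Ta and mt-Ts2 (adjusted p = 0.0158, 0.0159 and 0.0312). The limma differences were 1.00 ± 0.24 for mt-Tc (adjusted p = 0.189), 0.95 ± 0.25 for mt-Tn (adjusted p = 0.221), 0.68 ± 0.17 for mt-Ts2 (adjusted p = 0.200) and 0.52 ± 0.12 for mt-Ta (adjusted p = 0.156). mt-Ti, mt-Tm and mt-Ty, which fell with TAC on both diets, had 0.72 ± 0.37, 0.51 ± 0.34 and 0.06 ± 0.14. The difference for mt-Co3 was -0.41 ± 0.13 (adjusted p = 0.282). All 7 abundant mRNAs had positive differences, from 0.05 for mt-Nd5 to 0.30 for mt-Nd4, and mt-Nd5 was negative when scaled to total reads or to reads of nuclear genes. A call on 1 diet alone is thus not a shown difference between the diets.

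Nuclear genes whose products transcribe, replicate and process mitochondrial nucleic acids were tested in the same way. With TAC on the control diet 1.94% of all genes fell and 3.4% rose by limma. In lists of this size, 1 call cannot be set apart from those shares. Of 24 genes of mitochondrial DNA transcription and replication, 1 fell with TAC on the control diet, Mgme1, an exonuclease of mitochondrial DNA maintenance. Mgme1 had 447, 513 and 521 normalised reads in control TAC hearts, against 644, 684 and 659.5 in control sham hearts, without overlap. Its log2 change was -0.42 ± 0.09 (adjusted p = 0.0306), and by limma and edgeR 0 of the 24 passed in the other 3 pairwise comparisons or in the test of the difference (1 to 4 at an unadjusted p under 0.05; DESeq2 called 1 lower between the diets in TAC hearts). Of 33 tested genes of mitochondrial RNA processing and stability, 1 rose, Rexo2, which degrades short RNA fragments in mitochondria. Rexo2 had 2103, 1914 and 1835 normalised reads in control TAC hearts, against 1533, 1538 and 1608 in control sham hearts, without overlap. Its log2 change was 0.32 ± 0.07 with TAC on the control diet (adjusted p = 0.0349) and 0.31 ± 0.08 on the BCAA-free diet, which did not pass (adjusted p = 0.0569). It was named after its value was seen, as the only limma call of its list in any comparison; edgeR called it alone too, and DESeq2 called 1 to 2 genes of the list in 3 of the 5 tests. In sham hearts the smallest adjusted p of the 3 lists was that of Mrm3, a methyltransferase of mitochondrial rRNA, at -0.36 ± 0.09 (adjusted p = 0.0613).

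The nuclear partners of the mitochondrial mRNAs, 51 subunits of the respiratory complexes and the ATP synthase, had 5 genes that fell with TAC on the control diet and 18 that rose with the BCAA-free diet in TAC hearts, beside 1.94% of all genes lower in the first and 1.27% higher in the second. With control TAC 2 and 3 both left out, 1 control TAC library is left, and only log2 changes are given. The median over the 51 was then -0.32 with TAC on the control diet and 0.36 for the diet in TAC hearts. The calls of both comparisons are thus not shown to hold without those 2 libraries. DESeq2 called 22 lower and 25 higher in these comparisons, beside 4.01% and 3.46% of all genes, and edgeR 5 and 16, beside 1.67% and 1.12%. In the other 2 pairwise comparisons and in the difference, 0 passed by any of the 3 tools, with 1, 1 and 23 genes at an unadjusted p under 0.05. Cox6c, a complex IV subunit, had 28058, 35339.9 and 33158 normalised reads in BCAA-free TAC hearts, against 19406, 21013 and 22203 in control TAC hearts (0.62 ± 0.10, adjusted p = 0.0141). With TAC on the control diet it had a log2 change of -0.49 ± 0.10 (adjusted p = 0.0257). Cox7a1, the heart and muscle form of another complex IV subunit, fell by 0.73 ± 0.14 with TAC on the control diet, and Cox5a by 0.41 ± 0.08 (adjusted p = 0.0204 and 0.0255). In TAC hearts the complex III subunits Uqcrh and Uqcr10 rose with the BCAA-free diet by 0.61 ± 0.08 and 0.57 ± 0.09, and the ATP synthase subunit Atp5k by 0.77 ± 0.13 (adjusted p = 0.00585, 0.01001 and 0.0142). The median log2 change of the 51 genes between the diets in TAC hearts was 0.26, beside 0.04 over the 13 mitochondrial mRNAs and 0.00 over all genes. Cox5a had the smallest adjusted p of the lists in the difference of the TAC responses, at 0.44 ± 0.12 (adjusted p = 0.237).

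The deposited tables also carry the submitters' own tests. In the authors' deposited table for TAC on the control diet, 2 members were higher and 18 lower at an adjusted p under 0.05, and 1 had no adjusted p, beside 1548 of all 15928 genes in either direction. In the authors' deposited table for TAC on the BCAA-free diet, 5 were lower, beside 1145 of 15960 genes. In the authors' deposited table for the diets in TAC hearts, 8 were higher and 1 had no adjusted p, beside 1188 of 16234 genes, and in the authors' deposited table for sham hearts 0 passed, beside 813 of 15613 genes.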

How the data were processed

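Polyadenylated RNA of mouse hearts was sequenced in 12 libraries, 3 in each of 4 groups assigned by the labels. Trimmomatic 0.36, STAR 2.5.2b, Subread 1.5.2 and DESeq2 are named with build GRCm38 per the submitters' processing notes, and no source used here gives their settings. The authors deposited 4 tables, 1 per pair of groups, with a normalised signal per gene and library (gene reads divided by a size factor of that table). Per the file headers they also hold the authors' log2 fold changes and p-values, which were used only where named. Columns matched to no library numbered 0.

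In every column 100% of values were whole multiples of a single step, taken as 1 read (tolerance 0.001), which gave 29929161 to 46101244 reads per library. CPM values were computed from these totals. Intervals cover counting error only.

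Each comparison was tested within its own table with limma 3.58.1 (R 4.3.3) with an intensity trend on log2(value + 4), for genes averaging at least 10, with Benjamini-Hochberg adjustment over all genes and a threshold of 0.05. The difference of the TAC responses used both tables of TAC against sham. edgeR 4.0.16 and DESeq2 1.42.0 on the recovered reads, other scalings, pseudocounts and filters, a replicate block and leaving out libraries were alternatives. The fits were run on simulated data with known changes and the same dispersion (spread between libraries) for every gene. That setting does not test how they treat genes that depart from the intensity trend. All 33 members passed the filter. Both TAC comparisons, both diet comparisons and the difference share libraries, so their values are given side by side.

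Named genes were every mitochondrial gene, each tRNA in full where it passed the threshold in any comparison or was the highest of its class. From 3 lists of nuclear genes they were at most the 4 smallest p per comparison that passed, or the smallest p where none did. The members and lists were chosen with earlier results of these data known. Replicate numbers were shared across groups, and no label says that they pair libraries. Deviations of same-numbered libraries correlated at -0.09 to 0.26, the highest for replicate 1 of the TAC groups. A shared batch cannot be told from these values, and the replicate block was kept as an alternative.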

Additional observations from a re-analysis of the deposited data

How the results depend on the processing

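Counts of members called depended on the variance model and on single libraries. TAC against sham on the control diet gave 9 calls, limma without an intensity trend (chosen after seeing the data) 0 and DESeq2 20, and leaving out 1 library gave 4 to 11, the lowest without control sham 1. On the BCAA-free diet TAC gave 3 calls, against 0 without an intensity trend, 5 by DESeq2, 1 with all 12 libraries in one fit and 1 to 4 with 1 library left out, the lowest without BCAA-free sham 1 or 3. The diet in TAC hearts gave 5 calls, against 3 when scaled to total reads, 3 when scaled to reads of nuclear genes, 0 without an intensity trend, 8 by DESeq2, 0 with both control TAC 2 and 3 left out, and 0 to 6 with 1 library left out. The diet in sham hearts gave 0 calls and 0 to 2 with 1 library left out, the 2 without control sham 3. The difference of the TAC responses gave 0 calls, 3 by DESeq2, and 0 with any 1 library left out. With a replicate block there were 9 calls for TAC with the control diet and 2 with the BCAA-free diet, 7 for the diet in TAC hearts, 0 for the diet in sham hearts and 0 for the difference. All genes called higher and lower with the block numbered 516 and 289, 406 and 119, 618 and 657, 280 and 433, and 0 and 3 in these 5 tests, against 540 and 308, 469 and 219, 206 and 342, 163 and 275, and 1 and 6 without it. Without an intensity trend all genes called numbered 55 and 16 for TAC with the control diet and 0 and 0 with the BCAA-free diet. For the diet in TAC hearts they then numbered 34 and 143. Without control sham 1, TAC with the control diet called 215 and 85 of all genes. TAC with the BCAA-free diet called 88 and 18 without BCAA-free sham 1, and 90 and 28 without BCAA-free sham 3. The diet in sham hearts called 379 and 641 without control sham 3. The cause of these changes was not tested. Over single called genes, 231 of 303 alternative values kept the call, 72 lost it and 0 reversed in sign. The groups of every called gene were separate, so leaving out libraries could not have reversed a sign. All 60 alternative values of the class shares moved by less than 1 SD, the larger of the 2 groups. Leaving out 1 of 3 libraries cannot move a group mean by that much, so those values do not test stability. Members with few reads, mt-Ts1 above all, are limited by depth.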
